A study of Drosophila montana with 9 samples.

Results

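Diapausing females of the malt fly *Drosophila montana* were compared with young females that had emerged within a day, on a candidate gene microarray. The arrays were those of the samples whose titles mark them as diapausing (3 arrays, replicates 27, 42 and 43) and as young (3 arrays, replicates 12, 16 and 17), 6 of the 9 arrays of the series. All 108 genes of the array were described, 101 candidate genes and 7 housekeeping genes, which the study had sorted into circadian rhythm, courtship behaviour, diapause, cold tolerance, heat tolerance, phototransduction and housekeeping. The probe set held 197 probes, and each gene was the mean of its probes.

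Adult reproductive diapause is an arrest of egg maturation in which a female survives the winter before she breeds. In *D. montana* it is set by short days early in adult life, before the ovaries have matured, and diapausing flies of the genus are known for stress tolerance and slow ageing. A female that has just emerged is immature as well, but her cuticle is still hardening and darkening, a process that draws on dopamine, and she has not yet been through the photoperiod that sets diapause.

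Diapausing females had spent 14 days at 16°C with 16 h of light a day. Young females, 1 day old, came straight from cultures in 24 h of light at 19°C. The vials of the diapausing females had yeast on the medium, 5 mg by the methods and 1 mg by the sample labels. All females were of 1 isofemale line from northern Finland, and each sample was RNA from the whole bodies of 13 pooled females. Age, light, temperature and food therefore differed together, and their parts in a difference cannot be told apart. The group names were read from abbreviations in the sample titles, and a check of the ovaries of the pooled females was not given in the sources used here. In whole bodies, fewer cells of a type and less RNA per cell cannot be told apart either.

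The arrays lay on 3 slides, with every group once on each. Of the 197 probes, between 129 and 147 were well above background (the scanner software's mark for a spot clearly brighter than its surroundings) on the diapausing arrays and between 134 and 136 on the young arrays. The median corrected signal (the scanner software's processed signal) was 108.5 on diapausing replicate 27 and 39.07 and 57.73 on the other diapausing arrays. On the young arrays it was between 70.79 and 86.55. The median log2 signal of the added spike-in transcripts was 10.16, 10.91 and 10.92 on the diapausing arrays and between 9.36 and 10.45 on the young arrays. The array of diapausing replicate 27 stood apart: its median gene was at 7.15 on the normalized log2 scale, against 5.77 and 6.01 on the other diapausing arrays and between 6.72 and 7.21 on the young arrays. For 30 of the 108 genes, replicate 27 lay above all young arrays while both other diapausing arrays lay below all of them. Some results are therefore also given without this array, among them those of *slo*, *Ddc*, *Dca*, *Hsp26* and *dnc*. For most genes only the values with it are given. Of the markers of cell types, all 10 photoreceptor genes were well above background on every young array and 8 of 10 on every diapausing array, and their summed level was 128200, 27790 and 34200 on the diapausing arrays and between 61700 and 84120 on the young arrays. Of 4 neuronal markers *syt* and *para*, and of 3 markers of hearing organs *nan* and *btv*, were not well above background on any of the 6 arrays.

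In diapausing females 2 genes were called, with more than a 2-fold difference and an adjusted p below 0.05 (limma, Benjamini-Hochberg over the 108 genes), and both were lower than in young females: *slo*, a potassium channel, and *Ddc*, the enzyme that makes dopamine and serotonin. They were 1.85% of the genes tested, and 0 genes (0%) were called higher. With slide as a block, which pairs the arrays, 0 genes were called, and *slo* and *Ddc* both had a limma adjusted p of 0.0933. At an unadjusted p under 0.05, 9 genes (8.33%) were lower, namely *Ddc, shakB, slo, dnc, stv, CaMKII, so, Dat* and *cpo*, and 2 (1.85%) were higher, the cold acclimation gene *Dca* and the small heat shock gene *Hsp26*. Diapausing and young arrays did not overlap for 16 genes (14.8%) that were lower and 3 genes (2.78%) that were higher. The females of a sample were pooled and the labels do not say that samples came from separate cultures, so p-values measure only the spread between these samples. Over all genes 82 fold changes were below 0 and 26 above it, and the median was -0.39 on the log2 scale. That median depended on the scaling of the arrays and lay between -0.52 and 0.56 over 7 other normalizations, so a log2 fold change is also given less the median of all genes. On that relative scale, *Dca* and *Hsp26* stayed above 0 and 8 of the 9 lower genes below 0 in 14 other ways of processing and with each of the 9 arrays left out. *Dat* was the exception, at 0.23 with normexp background correction and quantile normalization.

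**Figure D1:**
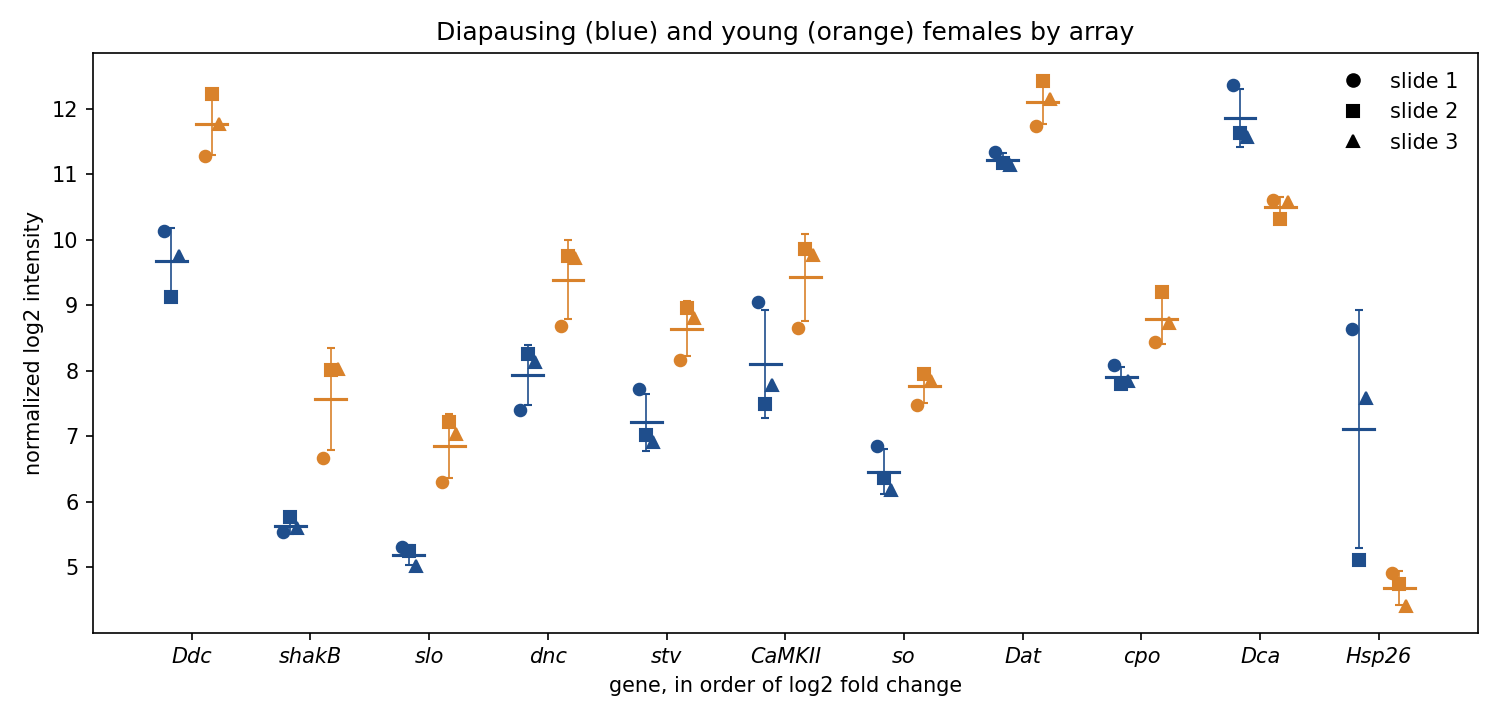
Normalized log2 intensity (vertical axis) of the 11 genes with an unadjusted p under 0.05, in order of their log2 fold change, with diapausing arrays in blue, young arrays in orange and the marker's shape giving the slide. Bars are means and error bars the SD over 3 arrays; the groups do not overlap for any gene but *CaMKII*.

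The probes behind the main results were 60 bases long and are printed as the scanner files give them, since each is the sequence against which transcripts were measured. The files give them no position in a genome. *Dca* probes 3 and 4 share 46 bases, printed in capitals, and so were not independent of each other.
slo probe 1: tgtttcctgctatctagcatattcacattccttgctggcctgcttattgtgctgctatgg
Ddc probe 1: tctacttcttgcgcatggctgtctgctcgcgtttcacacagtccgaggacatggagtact
Ddc probe 2: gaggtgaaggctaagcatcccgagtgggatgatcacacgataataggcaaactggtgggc
Dca probe 3: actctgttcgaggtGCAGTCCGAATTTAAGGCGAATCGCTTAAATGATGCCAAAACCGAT
Dca probe 4: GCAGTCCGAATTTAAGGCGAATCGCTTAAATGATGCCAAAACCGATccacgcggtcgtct
Hsp26 probe 1: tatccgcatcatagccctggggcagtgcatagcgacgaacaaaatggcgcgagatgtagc

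The 4 genes of dopamine and cuticle pigment metabolism had lower fitted levels after 14 days of diapause, and their median log2 fold change was -0.95 against -0.39 over all genes. Of the 4 genes 1, *Ddc*, was called (1.85% of all genes were called lower), 2 had an unadjusted p under 0.05 (8.33% of all genes, lower), and the arrays did not overlap for 3 (14.8% of all genes, lower). The list's median lay below that of all genes under each of 7 other normalizations, but not below 0 with normexp background correction and scaling to the 75th percentile, where it was 0.10. *Ddc* (CG10697) encodes dopa decarboxylase, which turns dopa into dopamine for the nervous system and for the hardening cuticle. Its normalized log2 level was 10.14, 9.12 and 9.75 on the diapausing arrays and 11.28, 12.23 and 11.77 on the young arrays. The lowest young array thus lay above the highest diapausing array. The log2 fold change was -2.09 (SE 0.41, limma adjusted p = 0.0447), a 4.26-fold lower level, and -1.70 less the median of all genes. With slide as a block the adjusted p was 0.0933. Both probes printed above were lower, by log2 differences of -1.93 and -2.25.

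*Dat*, which acetylates dopamine and other amines, was at 11.34, 11.16 and 11.14 in diapausing and at 11.74, 12.42 and 12.15 in young females. These groups did not overlap, but the log2 fold change of -0.89 (SE 0.25) was not called (limma adjusted p = 0.101). *e*, which joins dopamine to beta-alanine in the tanning of pale cuticle, was at 6.34, 5.76 and 5.84 against 6.46, 6.67 and 6.50. It did not overlap either, the log2 change being -0.56 with an SE of 0.26 (limma adjusted p = 0.394), but its probe 2 overlapped and its probe 1 was well above background on no diapausing array. *b*, the decarboxylase that supplies beta-alanine, was at 11.25, 10.17 and 9.94 against 11.21, 11.93 and 11.24. There the array of replicate 27 lay among the young arrays.

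The membrane channels and synaptic genes held the other called gene. Of 9 genes 1 was called, 2 had an unadjusted p under 0.05, all lower in diapausing females, and the arrays of 3 did not overlap, also all lower, against 1.85%, 8.33% and 14.8% of all genes. Their median log2 fold change was -0.46, close to that of all genes. *slo* (CG10693) encodes a calcium-activated potassium channel of nerve and muscle. Its level was 5.31, 5.25 and 5.01 on the diapausing arrays and 6.31, 7.22 and 7.03 on the young arrays. The diapausing arrays were close together and all lay below the young arrays. The only probe of *slo* was dim in diapausing females, with signals of 19.11, 19.18 and 12.66. The dimmest probes well above background on those arrays were at 4.96, 4.88 and 4.90, so *slo* lay near that floor there. The log2 fold change was -1.66 (SE 0.29, limma adjusted p = 0.0343), a 3.16-fold lower level, and -1.27 less the median of all genes. Its size depended on the processing. It was -2.28 in the deposited table and -0.17 with normexp background correction and scaling to the 75th percentile. *slo* too had a limma adjusted p of 0.0933 with slide as a block.

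*shakB* (CG34358), an innexin of the gap junctions that couple neurons electrically, had a pattern like that of *slo*. It was at 5.54, 5.78 and 5.60 on the diapausing arrays and at 6.66, 8.01 and 8.02 on the young arrays. Its only probe was dim in diapausing females, with signals of 24.26, 37.22 and 30.57. The log2 fold change of -1.93 (SE 0.45) was not called (limma adjusted p = 0.0597). *Slob*, a protein that binds the *slo* channel, overlapped between the groups, with 6.17, 5.47 and 5.27 against 5.81, 6.68 and 6.58. *na*, a sodium leak channel of pacemaker neurons, was at 4.48, 4.53 and 4.37 against 5.16, 4.73 and 4.91 without overlap. It was well above background on no diapausing and 2 young arrays, through its probe 2 alone. That probe was at 4.44, 4.67 and 4.31 against 6.42, 4.83 and 5.58. The other probes of *na* were well above background on none of the 6 arrays, so no bound is given. The calcium channel *cac*, the potassium channel *Sh* and the sodium channel genes *para* and *tipE* overlapped between the groups.

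Cold tolerance was represented by 2 genes, *Dca* and *Prp5*. *Dca* (CG7390), the *Drosophila* cold acclimation gene, belongs to the regucalcin family and is known in *D. melanogaster* for rising with cold acclimation. Its level was 12.36, 11.63 and 11.57 on the diapausing arrays and 10.60, 10.32 and 10.58 on the young arrays. Every diapausing array lay above every young array. The log2 fold change was 1.35 (SE 0.29), a 2.55-fold higher level, and 1.74 less the median of all genes, just short of the threshold (limma adjusted p = 0.0538). Without diapausing replicate 27 it was 1.12 (limma adjusted p = 0.0608). The 4 probes differed in size: probes 3 and 4 were higher by 2.06 and 2.16 on the log2 scale, probe 1 by 0.89 and probe 2 by 0.30, and only probe 2 overlapped between the groups. *Prp5*, an RNA helicase of the spliceosome, was at 6.07, 4.92 and 5.11 against 5.28, 5.49 and 6.17. On young replicate 17 its probe 1 was at 7.32, against 4.92 and 4.19 on the other young arrays. Its probe 2, which shares 38 bases with probe 1, was at 5.65 on replicate 17.

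**Figure D2:**
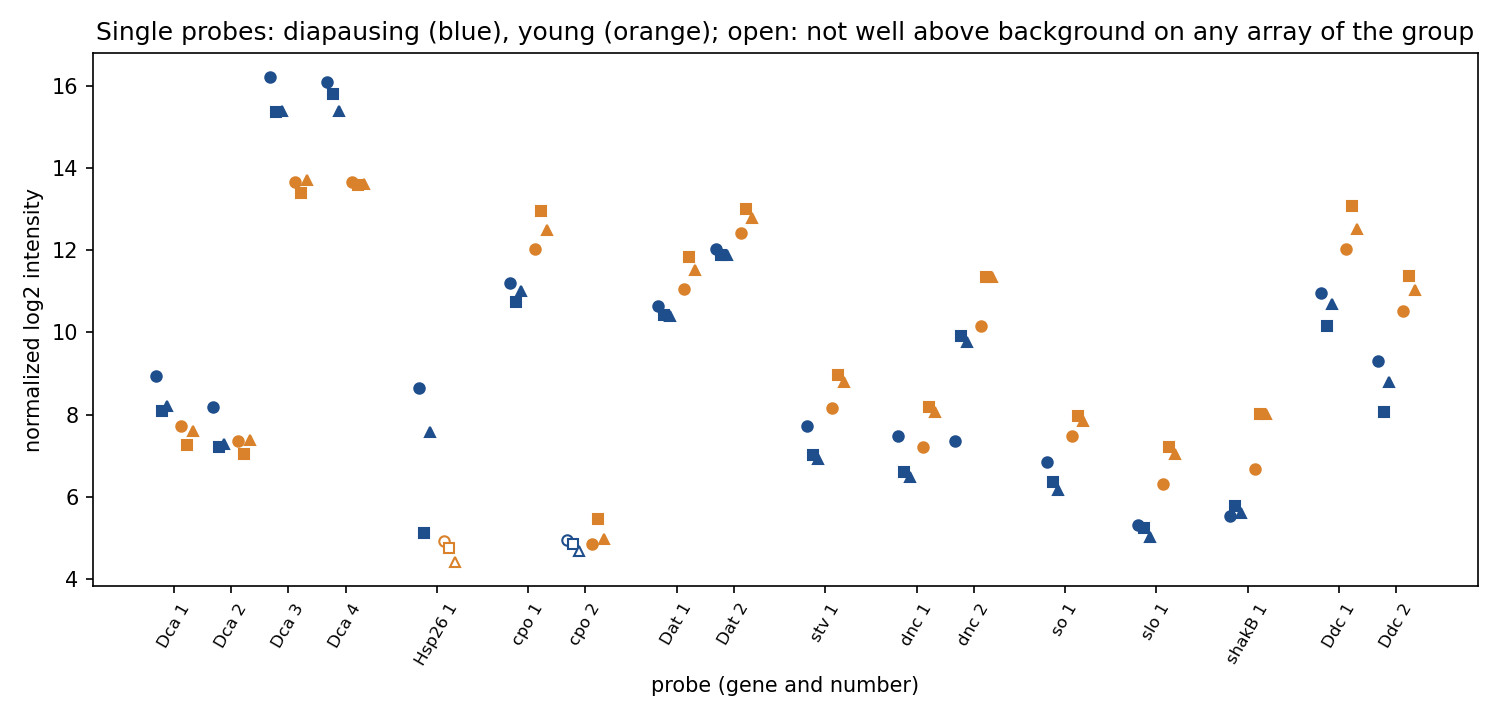
Normalized log2 intensity (vertical axis) of every probe of 10 genes (horizontal axis), diapausing in blue and young in orange, with marker shapes for slides 1 (circle), 2 (square) and 3 (triangle) and open markers where a probe was well above background on no array of the group. *Dca* probes 3 and 4 differ by 2.06 and 2.16, and *cpo* probe 2 by -0.26.

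Among the 27 heat tolerance genes, 1 was higher and 1 was lower at an unadjusted p under 0.05, and 0 were called. Their median was -0.46, with 22 fold changes below 0. Over all 108 genes, 1.85% were higher and 8.33% lower at such a p, 1.85% were called, and 82 fold changes were below 0. *Hsp26* (CG4183), a small heat shock protein that keeps unfolding proteins from clumping, had the highest fitted fold change of all 108 genes. It was at 8.64, 5.11 and 7.58 on the diapausing arrays and at 4.91, 4.74 and 4.41 on the young arrays. The diapausing arrays were far apart, and replicate 42 was only just above the young arrays. The log2 fold change was 2.43 (SE 0.77, limma adjusted p = 0.136). Since *Hsp26* was well above background on no young array, its mean in diapausing females was higher by at least 4.25-fold, where a young array counts as no lower than its dimmest probe well above background. Left without replicate 42, the log2 fold change was 3.38 and was called (limma adjusted p = 0.0055), and without replicate 27 it was 1.59 (limma adjusted p = 0.132).

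*Hsp20* (CG4461) was at 12.15, 11.78 and 11.52 in diapausing and at 12.63, 12.72 and 12.49 in young females, so the groups did not overlap and all 3 probes were lower. Its log2 change was -0.79 with an SE of 0.40 (limma adjusted p = 0.394). *Hsp67Bc* was at 5.62, 5.03 and 5.30 against 5.32, 7.20 and 4.82, and the high young value came from probe 2 alone, at 8.56 on replicate 16 and at 5.01 and 4.40 on the other young arrays.

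*stv* (CG32130), a co-chaperone of the Hsp70 proteins that serves muscle upkeep, was at 7.72, 7.01 and 6.91 against 8.16, 8.96 and 8.80, with no overlap. Its log2 fold change of -1.43 (SE 0.41) was not called (limma adjusted p = 0.101). *CG14650*, which has a DnaJ domain, was the only other gene of the class without overlap, at 5.04, 4.83 and 4.93 against 5.26, 5.51 and 5.42. The 6 genes of the Hsp70 family had fitted fold changes between -0.86 (*Hsc70-5*) and -0.15 (*Hsc70-4*), and the arrays of all 6 overlapped. For 4 of them replicate 27 lay above all young arrays and both other diapausing arrays below. *Hsp83*, the Hsp90 of flies, had the same spread, with 9.90, 7.47 and 8.18 against 8.77, 9.28 and 9.02. *Hop*, which links Hsp70 with Hsp90, was at 8.95, 6.50 and 7.33 against 8.42, 8.30 and 8.09. *Hsf*, the transcription factor that switches heat shock genes on, was at 7.82, 6.18 and 6.28 against 7.72, 7.98 and 7.90.

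The 7 genes chosen for diapause had a median log2 fold change of -0.61. Of these, 2 had an unadjusted p under 0.05, *Dat* and *cpo*, both lower, and their arrays did not overlap. Among all genes, 8.33% were lower at such a p and 14.8% were lower without overlap. *cpo* (CG31243) encodes an RNA-binding protein whose natural variants affect diapause in *D. melanogaster*. Its level was 8.08, 7.81 and 7.84 on the diapausing arrays and 8.44, 9.21 and 8.74 on the young arrays. The diapausing arrays were close together and below all young arrays. The log2 fold change was -0.89 (SE 0.25, limma adjusted p = 0.101), and it was 0.0069 and 0.026 in the settings with scaling to the 75th percentile. The probes differed in the size of the difference, and both are shown for that reason.
cpo probe 1: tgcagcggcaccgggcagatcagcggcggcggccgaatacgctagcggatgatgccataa
cpo probe 2: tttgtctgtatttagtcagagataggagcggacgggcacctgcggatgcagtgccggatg
Probe 1 was at 11.20, 10.75 and 11.02 against 12.04, 12.97 and 12.50, a log2 difference of -1.51. Probe 2 was well above background on 1 young array and on no diapausing array, with a difference of -0.26. With probe 1 alone standing for the gene, *cpo* was called (limma adjusted p = 0.0400).

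The insulin pathway, which in *D. melanogaster* adjusts ovary growth to feeding, was represented by its receptor *InR* and by the kinase subunit *Pi3K92E*. *InR* was at 6.05, 5.03 and 5.01 against 5.65, 6.02 and 6.24, and *Pi3K92E* was well above background on none of the 6 arrays. *CoI*, a mitochondrial subunit of cytochrome c oxidase, was at 16.22, 15.05 and 15.03 against 16.06, 16.24 and 16.12. *CrebB17A*, a transcription factor that responds to cyclic AMP, was at 7.73, 6.21 and 6.48 against 6.78, 7.54 and 7.42. In each of these 3 measured genes the array of replicate 27 lay apart from the other diapausing arrays. *Adh*, alcohol dehydrogenase, was at 16.60, 13.23 and 14.81 against 14.74, 14.59 and 14.02. On diapausing replicate 42 the spot of *Adh* probe 2 was an outlier and was left out, so that the value there came from probe 1 alone. Over the arrays that measured it, probe 2 was higher in diapausing females by 1.31 on the log2 scale without overlap, and probe 1 by 0.68 with overlap.

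**Figure D3:**
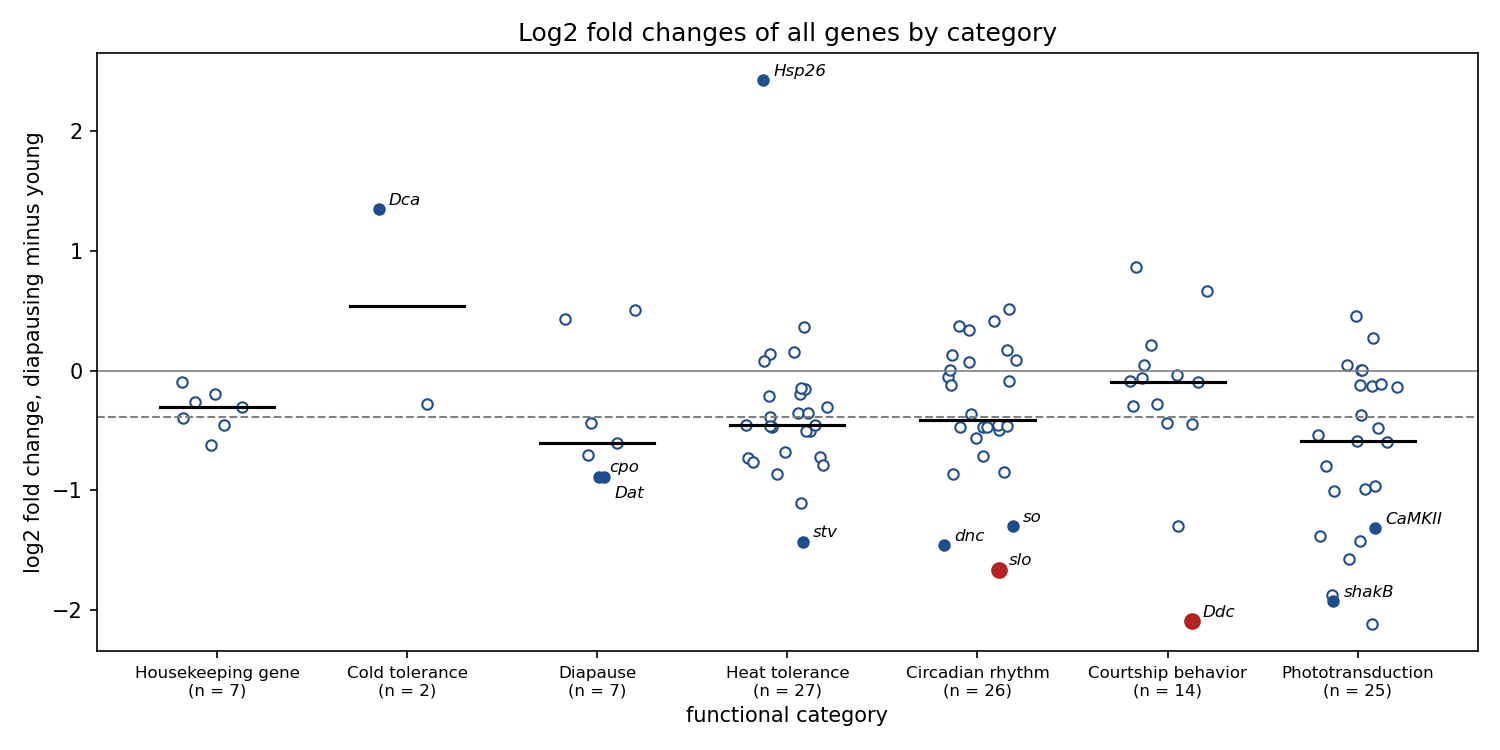
Log2 fold change of diapausing against young females (vertical axis) of all 108 genes by functional category (horizontal axis). Red points were called, blue points had an unadjusted p under 0.05 only, black bars are the category medians and the dashed line is the median of all genes (-0.39).

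Of the 26 circadian rhythm genes 1 was called (*slo*), 3 had an unadjusted p under 0.05, all lower, and 17 fold changes were below 0. Over all 108 genes, 1.85% were called lower, 8.33% were lower at such a p, and 82 fold changes were below 0. Their median of -0.41 was nearly that of all genes. *so* (CG11121), a homeobox factor needed for eye formation, was at 6.85, 6.36 and 6.17 against 7.48, 7.96 and 7.85, without overlap. Its log2 change was -1.30 with an SE of 0.32 (limma adjusted p = 0.0627). *dnc* (CG32498), the cyclic AMP phosphodiesterase first known as a learning gene, was at 7.41, 8.26 and 8.13 against 8.69, 9.76 and 9.71, also without overlap, the log2 change being -1.46 with an SE of 0.43 (limma adjusted p = 0.101). In *dnc* replicate 27 was the lowest diapausing array, where probe 2 was at 7.35, against 9.92 and 9.77 on the other diapausing arrays. Probe 1 overlapped between the groups, at 7.47, 6.60 and 6.49 against 7.22, 8.17 and 8.07. Without replicate 27 the log2 change of *dnc* was -1.16, and -0.52 less the median of all genes.

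The transcription factors and partners of the clock itself showed small differences. *Clk*, which activates the clock genes, was at 5.23, 4.95 and 4.88 in diapausing and 5.35, 5.55 and 5.25 in young females without overlap, the log2 change being -0.36 with an SE of 0.26 (limma adjusted p = 0.530). It lay above the median of all genes with this normalization and below it with several others. *per*, which represses its own activator, was at 5.53, 5.12 and 5.08 against 5.12, 5.35 and 4.86, and 1 of its 3 probes was well above background. *tim*, the partner of *per* in that repression, was well above background on none of the 6 arrays, and *vri*, which represses *Clk*, on 2 diapausing arrays and no young array. Diapausing females were frozen in their light phase, and young females came from constant light, so time of day could not be matched between the groups.

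The kinases, the phosphatase subunit and the F-box protein that set how long clock proteins last had fold changes between -0.85 (*CkIIalfa*) and -0.12 (*sgg*), and 0 of 5 had an unadjusted p under 0.05. Of *CkIIalfa* a left-out copy, with the same 60 bases as a probe in use, differed by 0.78 in the other direction, over 2 diapausing arrays, against -0.89 for the probe in use. On young replicates 16 and 17 the mean signal of that copy was 1091 and 1355 where the scanner software's corrected signal was 4974 and 5754. *slmb*, the F-box protein, was at 9.60, 7.33 and 8.02 against 8.49, 8.99 and 8.83. *tws*, the phosphatase subunit, was at 6.17, 4.88 and 5.09 against 5.66, 6.17 and 5.63. *dco*, the casein kinase that marks *per*, was at 6.11, 4.74 and 5.08 against 5.59, 6.14 and 5.68. In these genes replicate 27 lay above the young arrays or at the level of the highest of them, and both other diapausing arrays lay below all young arrays.

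The 4 genes of MAP kinase and immune signalling had fitted fold changes above 0, of 0.17 (*Dsor1*), 0.37 (*Mpk2*) and 0.52 (*Mekk1*) for the 3 genes measured in both groups. The fourth, *imd*, was well above background on no young array and allowed no bound, so its fitted value of 0.08 has no meaning as a fold. *Dsor1* and *imd* were above 0 only on slide 1, which held diapausing replicate 27. The differences of *Dsor1* on slides 1, 2 and 3 were 1.84, -0.78 and -0.54. *Mpk2* and *Mekk1* were above 0 on all 3 slides. The median of the 4 was 0.66 above that of all genes and between 0.41 and 1.14 above it under 7 other normalizations, *imd* included. *Mekk1*, a kinase of the stress branch, was at 7.50, 6.38 and 6.53 against 6.20, 6.37 and 6.29. It was 1 of the 3 genes with all diapausing arrays above all young arrays. Replicate 42 exceeded the highest young array by only 0.009, and the limma adjusted p was 0.571. The brighter probe 1 of *Mekk1* overlapped between the groups. Its probe 2 did not, but was well above background on 1 diapausing array and no young array. None of the 4 had an unadjusted p under 0.05.

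Phototransduction held 25 genes, whose median was -0.59 on the log2 scale, with 20 fold changes below 0. Of these, 2 had an unadjusted p under 0.05, both lower (*shakB*, described with the channels, and *CaMKII*). None was called, and 3 did not overlap, all lower. The shares over all genes were 8.33% lower at such a p, 1.85% called and 14.8% lower without overlap. *CaMKII* (CG18069), a calcium-dependent kinase of synapses and photoreceptors, was at 9.05, 7.49 and 7.78 against 8.65, 9.86 and 9.76. Its log2 change was -1.32 with an SE of 0.48 (limma adjusted p = 0.243), and replicate 27 lay above the lowest young array. The lowest fold change of all genes was that of *Gbeta76C*, the G protein subunit that couples to rhodopsin in the fly eye. It was at 11.54, 8.93 and 9.63 against 11.67, 12.39 and 12.38, without overlap. The diapausing arrays spread widely, and the log2 fold change of -2.12 with an SE of 1.32 was not called (limma adjusted p = 0.458). *ninaD*, a receptor for the uptake of carotenoids from which the eye pigment is made, was measured on 2 diapausing arrays, at 10.65 and 10.43, and was at 11.19, 10.97 and 11.22 in young females. The spot of its single probe on replicate 27 was an outlier, and the fit ran without it.

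Of 13 genes that work in photoreceptors, 12 had fold changes below 0, but none had an unadjusted p under 0.05. The main rhodopsin *ninaE* was at 15.70, 13.07 and 13.50 against 14.59, 15.14 and 14.93. The arrestin *Arr2*, which switches rhodopsin off, was at 14.44, 11.74 and 12.09 against 13.41, 13.87 and 13.87. In both, replicates 42 and 43 lay more than 1 log2 unit below the young arrays and replicate 27 lay above them. *ninaC*, a myosin and kinase of photoreceptors, was at 8.17, 4.98 and 5.33 against 7.54, 8.09 and 8.46. The rhodopsin *Rh3* was at 11.83, 7.54 and 9.70 against 11.96, 10.04 and 11.78, and the lowest young value came from probe 1, at 7.77 on replicate 16 where probe 2 was at 12.31. The lowest diapausing value came from probe 2, at 6.29 on replicate 42 where probe 1 was at 8.80. Without replicate 27 the arrays of 11 of the 13 genes did not overlap, all lower, but so were those of 71 of the 108 genes (65.7%), with 5 (4.63%) higher. This count was chosen after the data were seen. The differing spike-in signal and brightness of the arrays moved with these values, and their part in them was not tested.

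Of the 14 courtship genes, only *Ddc* had an unadjusted p under 0.05 (8.33% of all genes, lower). The arrays of *Ddc* and *ari-1* did not overlap (14.8% of all genes, lower). *ari-1*, a ubiquitin ligase, was at 9.39, 8.21 and 8.33 against 9.42, 10.16 and 10.24, the log2 change being -1.30 with an SE of 0.80 (limma adjusted p = 0.458). The gap on slide 1 was only -0.03. *tilB*, a gene of the hearing organ and of sperm tails, was at 6.42, 4.32 and 5.43 against 5.01, 4.72 and 3.84. It was well above background on 2 diapausing arrays and on no young array, and the groups overlapped. With all 3 diapausing arrays, its mean was at least 1.29-fold higher in diapausing females. Replicate 27 was the highest of these arrays, and no bound was computed without it. On slide 2 the difference was -0.40. *nonA*, an RNA-binding protein of vision and song, was well above background on 1 diapausing array and no young array.

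The 7 housekeeping genes overlapped between the groups, with fold changes between -0.62 (*RpL19*) and -0.10 (*Ef1alfa48D*) and 0 at an unadjusted p under 0.05. *Gapdh2* was at 11.03, 9.74 and 9.59 against 10.83, 10.45 and 10.44. *RpL11* was at 16.64, 15.14 and 15.39 against 16.15, 16.34 and 15.86. For 6 of the 7 genes replicate 27 lay above all young arrays and both other diapausing arrays below all of them, and for all 7 the latter arrays lay below the young arrays. This spread between diapausing arrays was seen in photoreceptor and chaperone genes too.

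Within slides, the sign of most differences depended on the slide. On slide 1, which held diapausing replicate 27, 82 of 107 genes were higher in diapausing females, with a median log2 difference of 0.30. On slide 2 it was 15 of 108 (median -0.89) and on slide 3 it was 22 of 108 (median -0.59). Only 29 genes had the same sign on all 3 slides, 20 lower and 9 higher. Of the 11 genes with an unadjusted p under 0.05, 10 kept their sign on the 3 slides, all but *CaMKII*, which was higher by 0.40 on slide 1. *Ddc* differed by -1.15, -3.10 and -2.02, *slo* by -0.99, -1.97 and -2.02 and *Dca* by 1.76, 1.30 and 0.99. With slide as a block in the fit, 0 genes were called by limma, while 2 genes were higher and 12 lower at an unadjusted p under 0.05, and the adjusted p was 0.0933 for each of *slo*, *Ddc* and *Dca*.

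**Figure D4:**
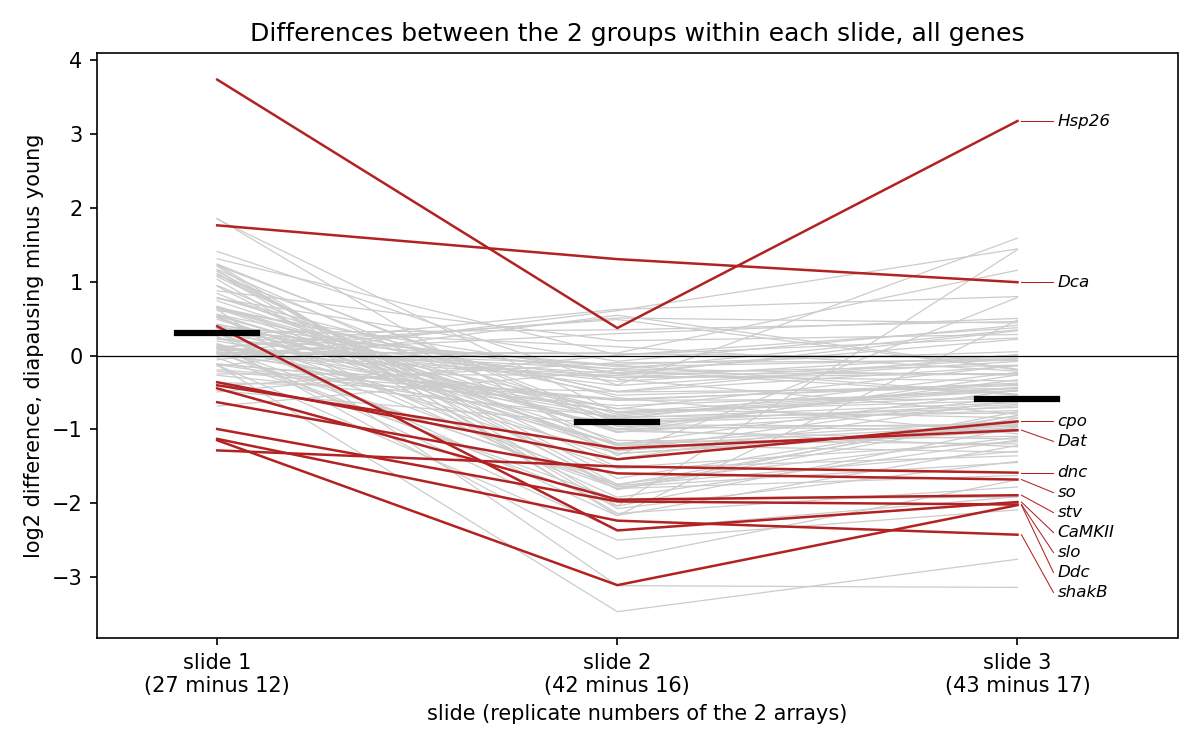
Log2 difference between the diapausing and the young array of the same slide (vertical axis) for each of the 3 slides (horizontal axis), with a line per gene. Red lines are the 11 genes with an unadjusted p under 0.05, grey lines the other genes and black bars the slide medians of 0.30, -0.89 and -0.59.

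Both calls depended on which arrays were in the fit. They were lost without any one of 6 arrays (young replicate 16 or 17, diapausing replicate 42 or 43, reproducing replicate 22 or 23), with adjusted p-values up to 0.21 for *slo* and 0.267 for *Ddc*, both without young replicate 16. The reproducing arrays bear on these p-values only through the shared estimate of the spread and the normalization. Without diapausing replicate 27, limma called *slo*, *Ddc* (both adjusted p = 0.0444) and *Hsc70-3*, all lower, and 34 genes were lower and 3 higher at an unadjusted p under 0.05. Over 14 other ways of processing, *slo* was called in 9 and *Ddc* in 8, and *Dca*, not called here, in 6. The split of directions turned with scaling to the 75th percentile. It called 7 genes higher (*dare, Dca, Hsp26, imd, inaF, Mekk1* and *Pgm*) and 1 lower (*slo*). Of these, *Hsp26*, *imd* and *inaF* were well above background on no young array. That scaling put 78.7% of the fold changes above 0 instead of 24.1%, and normexp background correction before it put 88% there.

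**Figure D5:**
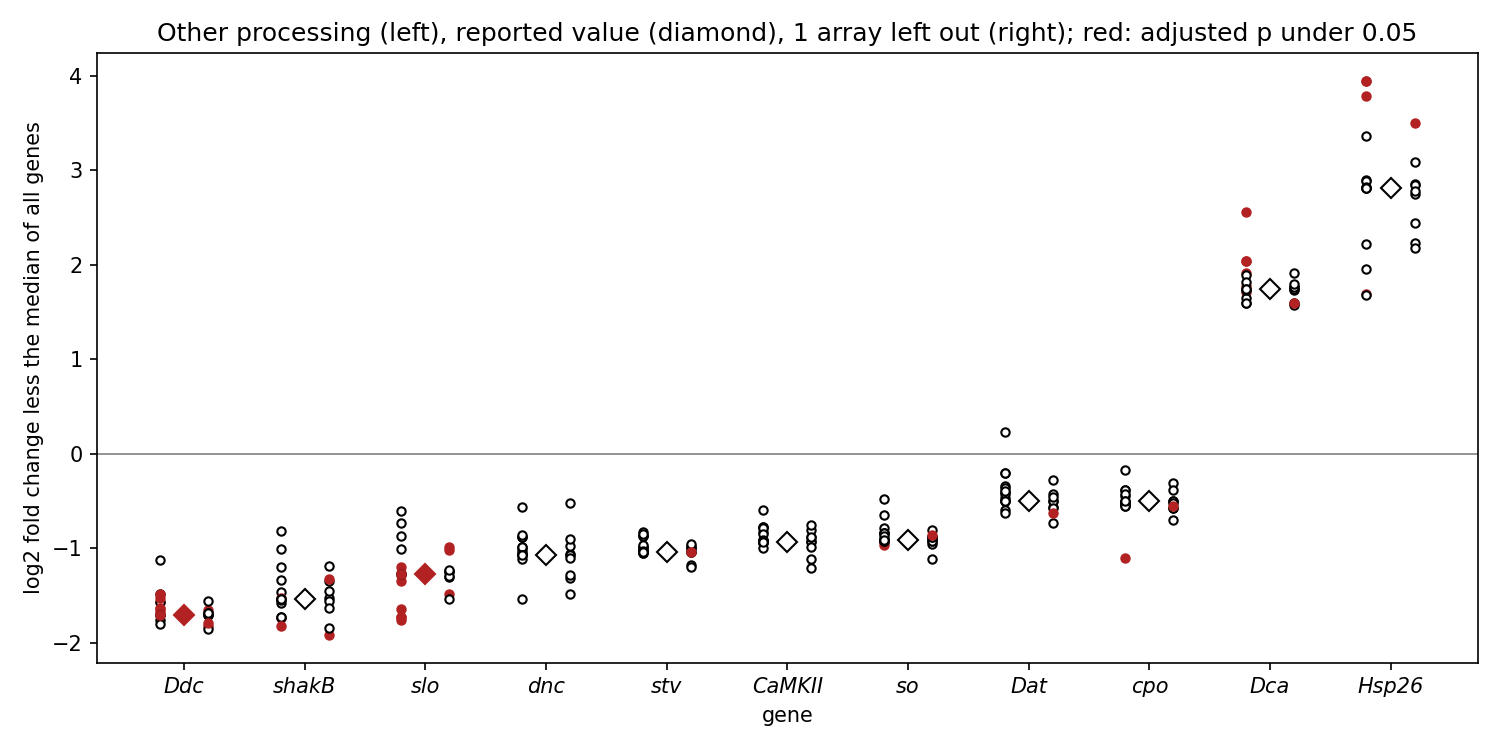
Log2 fold change less the median of all genes (vertical axis) of the 11 genes with an unadjusted p under 0.05 (horizontal axis), with the reported value as a diamond, 14 other ways of processing to its left and 9 fits with 1 array left out to its right. Red marks an adjusted p under 0.05, whatever the fold; only *Dat* crosses 0, at 0.23.

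Reproducing females of the same age as the diapausing ones (14 days, 24 h of light, 16°C) were set against the same young arrays, so the values of both comparisons stand side by side only. For *Ddc* the log2 fold change was -2.09 in diapausing and -2.53 in reproducing females, for *slo* -1.66 and -1.94, and for *shakB* -1.93 and -2.08. It was -0.89 and -1.50 for *cpo*, -1.30 and -1.41 for *so* and -1.43 and -1.82 for *stv*. The pairs were -1.46 and -0.80 for *dnc*, -0.89 and -0.48 for *Dat* and -1.32 and -0.05 for *CaMKII*. No such pair is given for *Hsp26*, which was well above background on no young array. The test of diapausing against reproducing females called none of *Ddc*, *slo*, *shakB* and *Hsp26* (limma adjusted p between 0.644 and 0.851), with differences of 0.44 (SE 0.41), 0.28 (SE 0.29), 0.15 (SE 0.45) and -1.07 (SE 0.77). *Dca* was at 1.35 in diapausing and -0.30 in reproducing females, and the difference of 1.65 (SE 0.29) between them was called (limma adjusted p = 0.0433). Among the 11 genes it was the only one called in that test.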

How the data were processed

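RNA of whole females was amplified, labelled with Cy3 and hybridised to a custom 1-colour array of 60-base probes by the authors. The series holds 1 array per sample. The paper also reports technical replicates, in which RNA of diapausing samples was hybridised at different times. It does not say at which time the diapausing arrays used here were run. The deposited scanner files hold, per the file headers, spot intensity from Feature Extraction 9.5.1.1, as mean signal, local background and the software's corrected signal. The deposited series table holds processed intensities whose normalization is not given in the sources used here. It was put on the log2 scale and served as an alternative only.

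Mean spot signals of the 9 arrays were normalized by variance stabilization (VSN) with 200 spike-in spots and a trimming quantile of 0.5, the method that the study names. It was written in R 4.3.3 and tested on simulated data. Outlier spots and control spots were left out, 28 probes spotted more than once were averaged, and 11 of 208 probes were left out. These were 6 opposite-strand probes, 4 probes of genes outside the list and 1 repeat of a *CkIIalfa* probe. The opposite-strand probes shared between 22 and 53 bases with a probe in use. A gene was the mean of its probes. Genes were tested with limma 3.58.1 over 9 arrays in 3 groups, with no covariate, and Benjamini-Hochberg adjustment over 108 genes. A gene was called at a fold over 2 and an adjusted p under 0.05. "Less the median" subtracts the median over all genes. Some genes were well above background on no array of 1 group only. There a bound ("at least") sets that group's arrays to no lower than the dimmest probe well above background. The fitted fold of such a gene is no bound. No bound is given where it is under 1, or for *na*, whose mean includes unmeasured probes.

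Genes named were those called, with an unadjusted p under 0.05 or without overlap between groups, the housekeeping, diapause and cold tolerance genes, genes the study's text names, and the 2 largest changes of each category; others complete a list and were chosen after their values were seen. The members and gene lists were chosen with earlier results of these data known. Alternatives covered the normalization, the signal used, background correction, outlier and dim spots, probe summary, slide as a block and each array left out. Array number limits the precision. Figures were drawn with matplotlib 3.10.9.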

Additional observations from a re-analysis of the deposited data

Results flagged for a closer look

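The difference in *Dca* between diapausing and reproducing females, both set against the young arrays, was 1.65 on the log2 scale (limma adjusted p = 0.0433), the difference itself having been tested. A probe of actin 42A, a gene outside the candidate list, was higher in diapausing females by 1.99 on the log2 scale. It was at 7.44, 6.65 and 6.83 on the diapausing arrays and at 4.64, 4.79 and 5.52 on the young arrays, and it was well above background on 3 diapausing arrays and 1 young array. The other probe of that gene differed by -0.31, and its arrays overlapped.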

How the results depend on the processing

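The count of 2 called genes was 0 with VSN fitted on the spike-ins alone, with normexp and quantile normalization, with slide as a block and with the 6 arrays alone. It was 5 with a VSN trimming quantile of 0.9, 8 with the 75th percentile (7 higher), 4 with scaling to the housekeeping mean, 6 in the deposited table, 2 but other genes (*Dca* and *Hsp26*, both higher) with normexp and the 75th percentile, 5 with the brightest probe per gene and 6 probes with each probe tested on its own. It lay between 0 and 6 with each array left out, at 6 without reproducing replicate 40. The median log2 change over all genes was 0.38 with the 75th percentile, 0.56 with normexp and the 75th percentile and 0.0041 with normexp and quantile, and between -0.64 and -0.12 with each array left out. The share of fold changes above 0 was 24.1%, against 78.7%, 88% and 53.7% in those 3 normalizations. *Dat* less the median turned to 0.23 with normexp and quantile. The causes were not tested. For the 11 genes with an unadjusted p under 0.05, 207 alternative values kept direction and side of the threshold, 22 passed it, 23 lost it and 1 turned; of the 36 other named genes, 743 values moved by less than 1 SD and 77 by more. The groups share no replicate numbers, so arrays were paired by slide only, as the block above. VSN of the scanner software's corrected signal, chosen after seeing the data, called 3 genes (*slo*, *Ddc* and *Dca*) with a median of -0.48. That signal differed from the mean signal by over 1 log2 unit from the array's median on 12 of 82 probes above a signal of 100 on reproducing replicate 40, on 2 of 99 on young replicate 16, on 3 of 100 on young replicate 17 and on none on the other arrays. Dim probes limit *Hsp26*, *na*, *tilB* and *cpo* probe 2, and in diapausing females also the single probes of *slo* and *shakB*. Of all genes, 14 were well above background on none of the 6 arrays.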

Other observations

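Among the left-out probes, an opposite-strand *Hsc70-4* probe differed by -0.48 on the log2 scale between diapausing and young females, and its arrays overlapped. It shares 33 bases with an *Hsc70-4* probe in use. Its median signal over the 6 arrays was 3435, against 175.7 for that probe. The opposite-strand *ari-1* probe had a signal of 332.2 on young replicate 16 and of 11.32 and 12.03 on the other young arrays. Both probes of histone 3.3A, a gene outside the list, overlapped between the groups, at log2 differences of -0.31 and -0.35.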
